A study of Rattus norvegicus with 12 samples.

Results

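The EGF family ligands and their ErbB receptors were followed through the first hours after sciatic nerve injury in rat dorsal root ganglia, the clusters of sensory nerve cell bodies and glia beside the spinal cord. The group comprised 10 genes, taken wherever the gene name of an array probe matched: the ligands Areg, Ereg, Btc, Hbegf, Tgfa and Nrg1, the receptors Egfr, Erbb2 and Erbb3, and the feedback inhibitor Errfi1. Of these, 9 were bright enough to be tested among 29623 genes, and Ereg was not. Lumbar ganglia (L4-6) came from male Sprague-Dawley rats in which a segment of the left sciatic nerve had been resected at mid-thigh, and were collected at 0.5, 3, 6 or 9 h, with 3 single-colour arrays per time and 12 in all. Every group was operated on in the same way under the same anaesthetic, and no uninjured group is labelled, so each difference below is between times after injury and 0.5 h served as the reference. The labels do not say which rats contributed to which array or whether animals were pooled. Replicate error here is the spread between arrays of a time, which may be partly technical, and p-values cover that spread alone.

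EGF family ligands are made as membrane-anchored precursors that proteases cut free, and they bind ErbB receptor tyrosine kinases, which pair on binding and signal through the Ras-MAP kinase and PI3-kinase routes. Erbb2 has no ligand of its own and serves as the preferred partner of the other receptors, while Erbb3 binds neuregulins but has little kinase activity. In peripheral nerve, neuregulin-1 from axons acting on the Erbb2 and Erbb3 pair on Schwann cells governs their survival and myelination. Errfi1 (Mig6) binds the active kinase domain of ErbB receptors and shuts it off.

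Levels are given as log2 signal relative to the array's 75th percentile, so that 0 is the 75th percentile of all spots on that array, and a difference of 1 is a doubling. A difference was called when the adjusted p of limma fell under 0.05 in that comparison over all genes. Levels of different probes are not comparable with each other. The 0.5 h arrays stood apart technically: well above background were 63.2% to 67.5% of their probes, and 82.3% to 85.3% of those on the other 9 arrays, and their median local background was 64 to 86 against 37 to 45. They shared 1 slide and 1 scan day, while the 3 h arrays shared another slide and the 9 h arrays another. Of the 6 h arrays, replicate 1 was alone on a slide, and replicates 2 and 3 shared a further slide. No slide held arrays of more than 1 time. Slide and time therefore cannot be told apart in any comparison, that of 6 with 3 h included. All 3 and 6 h arrays were scanned on another day, and all 9 h arrays on yet another. Only the comparison of 6 with 3 h lay within 1 scan day, and in the others scan day and time cannot be told apart. Markers of sensory neurons were abundant at every time, with a summed signal over 9 genes of 612 to 754 times the 75th percentile. The summed signal of 12 skeletal muscle markers varied widely between arrays of a single time, from 77.1 to 598 at 6 h. The median differences of these 12 from 0.5 h were 1.28 at 3 h, 1.3 at 6 h and 1.02 at 9 h, with none called. In the other 7 marker lists (satellite glia, fibroblasts, endothelium, fat, neutrophils, red blood cells, macrophages with lymphocytes), at most 3 genes were called in any comparison. These lists are short, with 3 to 9 tested genes each. Of 7 endothelial markers, 3 were higher from 6 to 9 h, where 19.2% of all genes were higher. At 3 h against 0.5 h, 2 of them were higher and 1 lower, beside 9.69% and 13% of all genes. Fat markers were uneven, with a summed signal over 5 genes of 1.65 to 2.16 at 0.5 h and 1.35 to 7.22 later. Their median differences from 0.5 h were up to 1.44, at 9 h (1.18 at 3 h). The sum over 7 neutrophil markers was 16.9 on the third 6 h array and 1.57 to 5.24 on the other arrays. In whole ganglia, fewer cells of a type and less RNA per cell cannot be told apart.

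Across the 9 tested genes, calls were most numerous between 0.5 and 9 h. Areg, Egfr and Erbb3 were higher at 9 h and Tgfa, Erbb2 and Errfi1 were lower, so 6 of 9 were called, where 33.4% of all genes tested were called in that comparison. Of all genes, 22.7% were called higher and 10.7% lower there. At 3 h against 0.5 h, Erbb2 alone of the 9 was called, and it was lower, while 22.7% of all genes were called, 9.69% higher and 13% lower. At 6 h, Errfi1 alone was called against 0.5 h, also lower, beside 13.4% of all genes, 4.07% higher and 9.31% lower. Between 3 and 6 h, Erbb2 was higher and Errfi1 lower, and of all genes 10.4% were called, 5.93% higher and 4.45% lower. Between 6 and 9 h, Areg was higher and Erbb2 lower, and 25.1% of all genes were called, 19.2% higher and 5.93% lower. Arrays did not overlap for 1 of the 9 genes at 3 h against 0.5 h (40.7% of all genes), for 2 in the comparison of 6 with 0.5 h (37.1%), and for 6 in that of 9 with 0.5 h (48.7%). They did not overlap for 4 genes between 3 and 6 h (35% of all genes) and for 5 between 6 and 9 h (44.3%). In the test for any difference over the 4 times, Areg, Tgfa, Egfr, Erbb2 and Errfi1 were called, against 43.6% of all genes. The median difference between 9 and 0.5 h was -0.09 over the 9 genes and 0.10 over all genes.

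**Figure D1:**
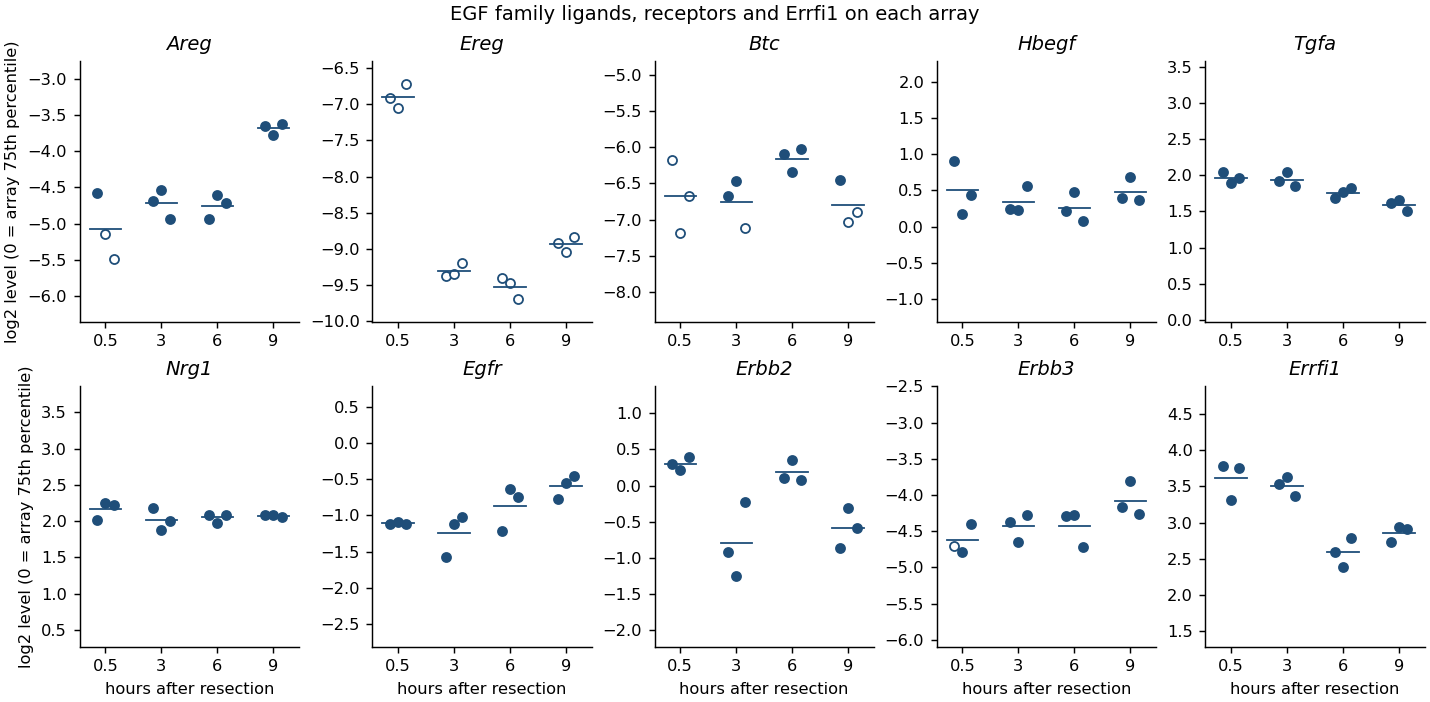
Log2 level of each of the 10 genes on each array (points) and the mean of 3 arrays (bars) against hours after resection; 0 is the array's 75th percentile, filled points were well above background and open points were not, and every panel spans the same number of log2 units. Areg stands highest on the 9 h arrays (-3.77 to -3.62), Erbb2 is lower at 3 and 9 h than at 0.5 and 6 h, and all Ereg points are open.

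Among the ligands, amphiregulin, encoded by Areg, a ligand of the EGF receptor, rose late. Its level was -4.58, -5.14 and -5.49 at 0.5 h, -4.69, -4.54 and -4.93 at 3 h, -4.93, -4.61 and -4.72 at 6 h, and -3.65, -3.77 and -3.62 at 9 h. All 3 arrays at 9 h lay above all 9 earlier ones, while the 3 and 6 h arrays overlapped those of 0.5 h. Areg was 2.1-fold higher at 9 h than at 6 h (1.07, SE 0.20, adjusted p = 0.00317; -3.68 ± 0.08 against -4.75 ± 0.16, SD, n = 3), a comparison in which all 6 arrays measured it. At 0.5 h the probe was well above background on 1 of 3 arrays, so no fold is given against that time. The fitted difference between 9 and 0.5 h was called (1.39, SE 0.20, adjusted p = 0.000929) and rests in part on readings that were not well above background. With another background correction (normexp) both calls were lost, at 0.73 against 6 h (adjusted p = 0.893) and 1.26 against 0.5 h (adjusted p = 0.299). Without the first 0.5 h array, Areg was also called higher at 3 h (0.60, adjusted p = 0.0265) and at 6 h (0.57, adjusted p = 0.0443), against 0.35 (adjusted p = 0.242) and 0.32 (adjusted p = 0.327) with it.

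The Areg gene lies on chromosome 14 of the GRCr8 assembly, at 17256384 to 17265641, between Btc (16992668 to 17031178) and Ereg (17311485 to 17325260), with Epgn, the epigen gene, at 17360968 to 17369000. These 4 ligand genes are the only protein-coding genes in a span of 376 kb. On the array Areg was called in this cluster at 9 h, whereas Btc was not, Ereg was not tested, and Epgn differed by 0.10 between 9 and 0.5 h (adjusted p = 0.737 over 34837 probes). Btc and Epgn were each well above background on 1 of 3 arrays at 9 h and on no array at 0.5 h. A rise of Areg alone in the cluster therefore could not be shown.

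RefSeq gives a promoter for 7 of the 10 genes in the GRCr8 build (not for Ereg, Nrg1 or Erbb3), and the 250 bases before the start were searched on both strands for TGACGTCA and its part CGTCA, for TGANTCA, and for TATAAA. Areg and Errfi1 alone among the 7 held both CGTCA and TATAAA, which 1.67% of 33469 promoters do. They are shown because one gene rose late and the other fell, a choice made with the results known. Egfr was also higher at 9 h, and Tgfa and Erbb2 were also lower, yet their promoters held none of the sequences searched. Any relation between the matches and the changes was not tested. The Areg promoter is chr14:17265642-17265891 on the minus strand and the Errfi1 promoter is chr5:166606591-166606840 on the plus strand, each written 5′ to 3′, with capitals marking matches to CGTCA and TATAAA on either strand.
Areg: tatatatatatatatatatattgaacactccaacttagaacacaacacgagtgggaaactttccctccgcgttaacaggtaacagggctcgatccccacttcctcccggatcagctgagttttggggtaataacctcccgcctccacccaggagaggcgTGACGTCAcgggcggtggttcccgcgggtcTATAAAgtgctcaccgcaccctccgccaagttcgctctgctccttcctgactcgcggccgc
Errfi1: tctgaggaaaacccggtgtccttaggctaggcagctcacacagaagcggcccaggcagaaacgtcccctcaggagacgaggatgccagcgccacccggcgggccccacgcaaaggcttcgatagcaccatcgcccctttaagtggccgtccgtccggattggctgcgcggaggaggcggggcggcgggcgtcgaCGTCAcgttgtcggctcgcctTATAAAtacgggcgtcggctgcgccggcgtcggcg
The Areg promoter holds the full TGACGTCA, found in 1.59% of promoters, which overlaps its CGTCA matches and begins 91 bases before the start. The Errfi1 promoter holds a single CGTCA beginning 56 bases before the start, and Hbegf holds 1 CGTCA beginning 193 bases before it. CGTCA alone occurs in 18.2% of promoters and TATAAA in 12.9%. TGANTCA, present in 6.34%, was found in none of the 7. A match describes the letters and no more.

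Transforming growth factor alpha, encoded by Tgfa and another ligand of the EGF receptor, was slightly lower at 9 h. It read 2.05, 1.89 and 1.96 at 0.5 h, 1.92, 2.04 and 1.85 at 3 h, 1.69, 1.77 and 1.82 at 6 h, and 1.62, 1.65 and 1.50 at 9 h. The 9 h arrays were below every earlier array, and those of 6 h were below all of 0.5 and 3 h. Tgfa was 1.30-fold lower at 9 h than at 0.5 h (-0.38, SE 0.07, adjusted p = 0.00408), and the difference at 6 h was not called (-0.21, adjusted p = 0.09). Normexp correction ended the call (-0.45, adjusted p = 0.0899). Scaling by the array median in place of the 75th percentile called the 6 to 9 h step as well (-0.38, adjusted p = 0.00694, against -0.17 and 0.125).

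Heparin-binding EGF, encoded by Hbegf, binds both the EGF receptor and Erbb4, and no comparison called it. Its level was 0.90, 0.17 and 0.43 at 0.5 h, 0.24, 0.23 and 0.56 at 3 h, 0.21, 0.48 and 0.07 at 6 h, and 0.40, 0.68 and 0.36 at 9 h, and every time overlapped 0.5 h. The 95% confidence interval of its 9 h against 0.5 h difference ran from -0.43 to 0.40, so a change within that range was not resolved. Over the 5 comparisons its largest difference was -0.25 at 6 h against 0.5 h (interval -0.67 to 0.17).

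Nrg1, which makes the neuregulins that bind Erbb3, was steady on both of its probes. The brighter probe read 2.02, 2.25 and 2.22 at 0.5 h, 2.18, 1.88 and 2.00 at 3 h, 2.09, 1.97 and 2.09 at 6 h, and 2.08, 2.09 and 2.06 at 9 h. Its differences lay between -0.14 and 0.03 over the 5 comparisons, and the interval at 9 h against 0.5 h was -0.28 to 0.11. The second probe, printed 10 times on each array, read 0.17 ± 0.07 at 0.5 h and 0.22 ± 0.12 at 9 h (SD, n = 3) and was not called in any comparison either. The probes do not separate the many Nrg1 isoforms by name, so a shift between isoforms was not tested.

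Betacellulin and epiregulin, encoded by Btc and Ereg, were near the limit of measurement. Btc read -6.18, -7.19 and -6.67 at 0.5 h, -6.68, -6.47 and -7.11 at 3 h, -6.10, -6.34 and -6.03 at 6 h, and -6.45, -7.03 and -6.90 at 9 h. It was well above background on all 3 arrays only at 6 h, on 2 of 3 at 3 h and on 1 of 3 at 9 h, and on no array at 0.5 h. The 6 h arrays were above those of 3 and 9 h, but neither difference was called (0.60, adjusted p = 0.178, and -0.64, adjusted p = 0.101). The 6 to 9 h decrease was called by the fit on those times alone (adjusted p = 0.0484) and by median scaling (-0.85, adjusted p = 0.0335). It was also called with the slide as a random block (adjusted p = 0.0212). That block cannot separate slide from time, as no slide held arrays of more than 1 time. Under normexp the Btc difference from 6 to 9 h turned to 0.23 (adjusted p = 0.909). Ereg was not well above background on any of the 12 arrays, with readings of -7.05 to -6.72 at 0.5 h and -9.69 to -8.83 later, so its readings give only an upper bound.

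**Figure D2:**
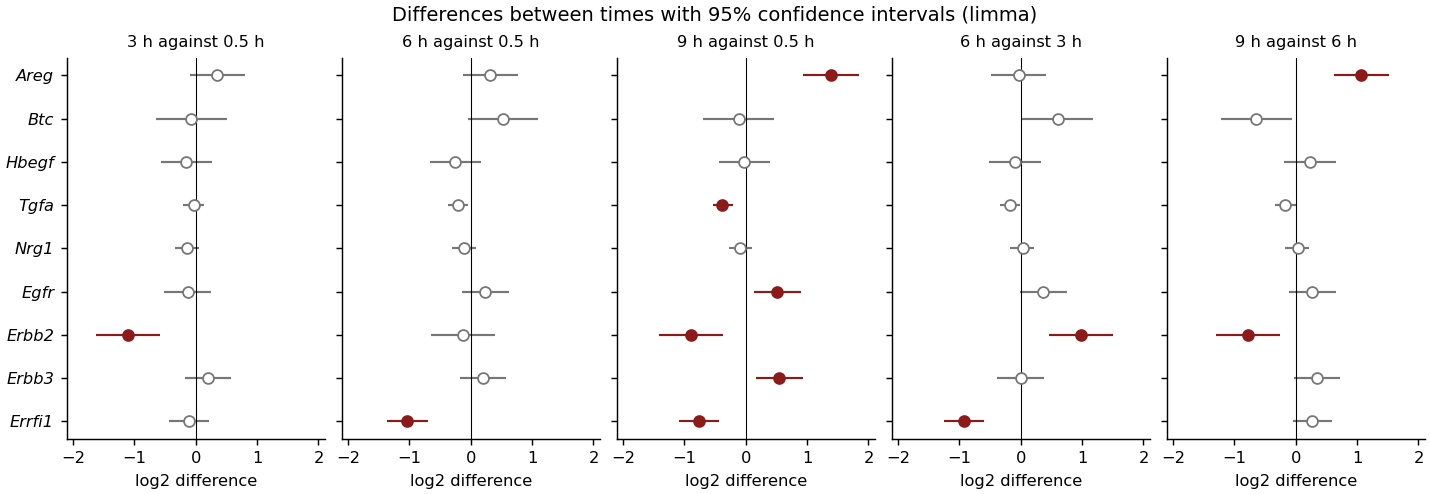
Log2 difference between times (horizontal axis) for the 9 tested genes, with 95% confidence intervals from limma; filled red points were called (adjusted p under 0.05) and open grey points were not. The 9 h against 0.5 h panel holds 6 called genes, from Areg at 1.39 to Erbb2 at -0.89.

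Among the receptors, Erbb2 had the largest differences and Egfr and Erbb3 rose slightly by 9 h. A 60-base probe of each receptor is shown because the measurements rest on so few probes: for Erbb2 and Erbb3 the only probe, and for Egfr the second, dimmer one, printed in 10 spots. The Egfr call in the summary above rests on the brighter probe, on chromosome 14 from 97788051 to 97788110, which is not shown. The Erbb2 probe maps to chr10:87241824-87241883 in the RGSC v3.4 (rn4) build that the array files use. The Egfr probe shown, on chromosome 14 from 97786789 to 97787499, and the Erbb3 probe, on chromosome 7 from 1859093 to 1859343, span 711 and 251 bases of genome, so each 60-base probe crosses at least 1 intron.
Erbb2: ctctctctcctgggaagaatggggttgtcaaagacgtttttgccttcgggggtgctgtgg
Egfr: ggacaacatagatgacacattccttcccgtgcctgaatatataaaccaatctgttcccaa
Erbb3: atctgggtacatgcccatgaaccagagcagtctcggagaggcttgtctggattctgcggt
The GC content was 55% for the Erbb2 and Erbb3 probes and 41.7% for the Egfr probe.

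Erbb2 fell at 3 h, stood higher at 6 h and was lower again at 9 h. It read 0.30, 0.21 and 0.40 at 0.5 h, -0.92, -1.25 and -0.22 at 3 h, 0.11, 0.36 and 0.08 at 6 h, and -0.86, -0.31 and -0.59 at 9 h. All 6 arrays of 3 and 9 h were below all 6 of 0.5 and 6 h. The probe was printed 10 times on each array, with an SD between spots of 0.06 to 0.16 within an array (median 0.09), whereas the 3 h arrays had an SD of 0.53 between them. The drop at 3 h was 2.14-fold (-1.10, SE 0.23, adjusted p = 0.00884), and it was called under every alternative run, each array left out in turn included. At 9 h against 0.5 h it was 1.86-fold lower (-0.89, SE 0.23, adjusted p = 0.0161). From 3 to 6 h it rose 1.97-fold (0.98, SE 0.23, adjusted p = 0.0262), and from 6 to 9 h it fell 1.71-fold (-0.77, SE 0.23, adjusted p = 0.036). These other 3 calls were less stable. The 9 h call was lost without the first 9 h array (-0.75, adjusted p = 0.0504), the 3 to 6 h call without either of the first 2 arrays of 3 h or any array of 6 h (adjusted p of 0.0551 to 0.0913), and the 6 to 9 h call without any array of 6 h or the first or the third of 9 h (0.0688 to 0.11). Normexp ended all 3 (adjusted p of 0.133, 0.1 and 0.377, in the order given), and the fit on those times alone ended the 3 to 6 h call (0.0745). With the replicate number as a block the 6 to 9 h difference was -0.77 with an adjusted p of 0.0517.

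The called course of Erbb2, down at 3 h, up at 6 h and down at 9 h, was shared by 917 genes, 3.1% of those tested. Of 61 other kept probes for these genes, 3 had the same called course and 11 the same 3 signs. Erbb2 has only 1 probe on the array, so its course could not be checked on another. Among the pathway genes described below, Spry4, Ptpn12 and Rab7a shared it, and they are named together here after their values were seen. The summed signal of the 10 Schwann cell markers was 425 to 538 at 0.5 h, 375 to 401 at 3 h, 363 to 386 at 6 h and 398 to 439 at 9 h, with 1, 2 and 3 of the 10 called lower at 3, 6 and 9 h against 0.5 h (13%, 9.31% and 10.7% of all genes). On the 3 h arrays, in the order given for Erbb2, fat markers summed to 6.59, 7.22 and 1.35 and muscle markers to 297, 342 and 72.1, so both were high on the pair of arrays where Erbb2 was lowest. At 6 h muscle markers summed to 77.1, 598 and 167, and Erbb2 was highest on the array with the most. Fat markers there summed to 2.41, 3.65 and 5.03, and Erbb2 was lowest on the array with the most. On the 9 h arrays fat markers summed to 7.16, 5.2 and 2.22 and muscle markers to 258, 192 and 86. Erbb2 was lowest on the 9 h array highest in both, but not highest on the array lowest in both. At 0.5 h fat markers summed to 1.93, 1.65 and 2.16 and muscle markers to 82.4, 60 and 144. Erbb2 was then highest on the array highest in both. The part of these markers in the Erbb2 result was not tested.

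The EGF receptor, encoded by Egfr, was higher at 9 h on both of its probes. The brighter probe read -1.12, -1.09 and -1.12 at 0.5 h, -1.57, -1.12 and -1.03 at 3 h, -1.22, -0.64 and -0.75 at 6 h, and -0.78, -0.55 and -0.46 at 9 h. The second probe, with 10 spots, read -2.43, -2.58 and -2.41 at 0.5 h, -3.02, -2.82 and -2.32 at 3 h, -2.98, -2.27 and -2.53 at 6 h, and -1.98, -1.80 and -1.68 at 9 h. On each probe all 9 h arrays were above all 0.5 h arrays, and on the second probe they were above all 9 earlier arrays. The brighter probe gave a 1.43-fold difference at 9 h against 0.5 h (0.51, SE 0.17, adjusted p = 0.0433) and the second 0.65 (adjusted p = 0.0338 over 34837 probes). From 6 to 9 h the second probe was called (0.78, SE 0.20, adjusted p = 0.0197) and the brighter was not (0.27, adjusted p = 0.28). The call on the brighter probe was close to the threshold. It was lost under normexp (0.53, adjusted p = 0.251), under median scaling (0.40, adjusted p = 0.0802), and without any 0.5 h array, the second 3 h array, the third 6 h array or the second or the third 9 h array (adjusted p of 0.0525 to 0.124).

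**Figure D3:**
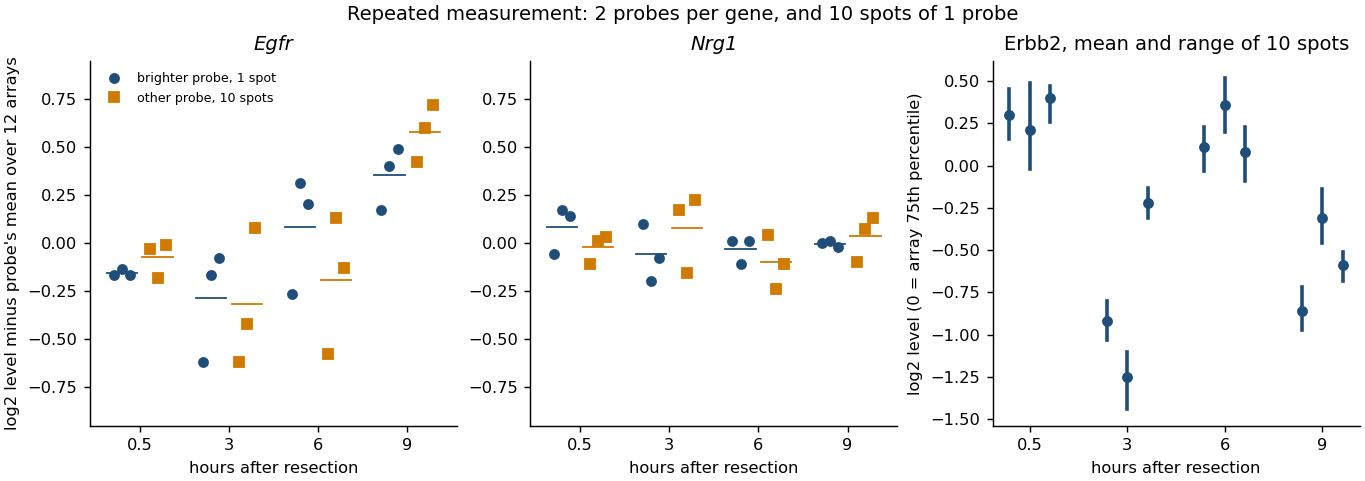
Repeated measurement of 3 genes against hours after resection: for Egfr and Nrg1, the log2 level on each array of the brighter probe (circles, 1 spot) and the other probe (squares, 10 spots), each minus its own mean over the 12 arrays, with bars for the mean of 3 arrays; for Erbb2, the mean (point) and range (line) of 10 spots on each array. Both Egfr probes stand highest at 9 h, both Nrg1 probes stay near 0, and the spread of Erbb2 between spots is smaller than that between the 3 h arrays.

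Erbb3, the neuregulin receptor that Schwann cells pair with Erbb2, was dim and rose slightly. It read -4.70, -4.78 and -4.40 at 0.5 h, -4.37, -4.65 and -4.28 at 3 h, -4.29, -4.27 and -4.72 at 6 h, and -4.17, -3.81 and -4.26 at 9 h. The 9 h arrays lay above those of 0.5 h and overlapped none of them, and it was 1.46-fold higher at 9 h (0.55, SE 0.17, adjusted p = 0.0324), with 2 of 3 arrays well above background at 0.5 h. The dimmest signal well above background had a level of -5.07 to -4.71 at 0.5 h and of -7.55 to -6.74 at later times, so the 0.5 h values sat at the edge of what those arrays measured. The call was lost under normexp (0.85, adjusted p = 0.385), quantile scaling (0.25, adjusted p = 0.336), median scaling (0.44, adjusted p = 0.083), the replicate block (0.55, adjusted p = 0.0616), the fit on those times alone (adjusted p = 0.0554), and without the first or second 0.5 h array or the second 9 h array (adjusted p of 0.0849 to 0.109).

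Errfi1, the inhibitor induced by EGF receptor signalling itself, was abundant at first and fell between 3 and 6 h. It read 3.78, 3.31 and 3.76 at 0.5 h, 3.53, 3.63 and 3.36 at 3 h, 2.59, 2.39 and 2.79 at 6 h, and 2.73, 2.94 and 2.91 at 9 h. All 6 arrays of 6 and 9 h were below all 6 of 0.5 and 3 h. It was 2.04-fold lower at 6 h than at 0.5 h (-1.03, SE 0.15, adjusted p = 0.00364), 1.89-fold lower at 6 h than at 3 h (-0.92, SE 0.15, adjusted p = 0.00355), and 1.69-fold lower at 9 h than at 0.5 h (-0.76, SE 0.15, adjusted p = 0.00396). The step from 6 to 9 h was not called (0.27, interval -0.05 to 0.60). Leaving out any single array kept all 3 calls, and normexp ended them (adjusted p of 0.122, 0.0575 and 0.0544, in the order given).

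Of the rest of the family, Egf, the founding ligand of the EGF receptor, rose early. It was measured in 10 spots and read -2.72, -2.80 and -2.88 at 0.5 h, -2.30, -2.20 and -2.11 at 3 h, -2.56, -2.40 and -2.64 at 6 h, and -2.47, -2.44 and -2.39 at 9 h. It was 1.51-fold higher at 3 h than at 0.5 h (0.60, SE 0.08, adjusted p = 0.000824) and 1.29-fold higher at 9 h (0.36, adjusted p = 0.007). Both calls held without any single array and were lost under normexp (adjusted p of 0.635 and 0.305). The fall from 3 to 6 h (-0.33, adjusted p = 0.0269) was called, and was lost without the second or the third 3 h array or the first or the third 6 h array (0.0605 to 0.11), with the replicate block (0.0552) and in the fit on those times alone (0.0824). Under normexp this fall was 0.00 (adjusted p = 0.995). Epgn was called higher at 3 h than at 0.5 h (0.78, adjusted p = 0.0229) and lower at 6 h than at 3 h (-0.83, adjusted p = 0.0304). It was well above background on no 0.5 h array, so no fold is given, and normexp turned both signs. In the fits on the times compared neither was called (adjusted p of 0.0572 and 0.0519), and quantile scaling lost the second (-0.67, adjusted p = 0.203). The first of these calls was lost without either of the first 2 arrays of 0.5 h or the first or the third of 3 h (0.0598 to 0.0758), and the second without the first or the third of 3 h or any of 6 h (0.0561 to 0.0971).

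Nrg3, a further neuregulin, was called higher at 3 h (0.46, adjusted p = 0.0303), and lost the call without the first or the third 0.5 h array or the first or second 3 h array (0.0613 to 0.0997), with the replicate block (0.0594) and in the fit on those times alone (0.0799). Under normexp its difference was 0.10 (adjusted p = 1). Nrg2 was not called, with differences of -0.22 to 0.20 on its brightest probe. Erbb4, the remaining receptor, was well above background on 5 of 12 arrays and on all 3 arrays of no time, so it was not tested. No probe named Nrg4 was found.

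Ligand shedding was represented by 10 tested genes, the ADAM proteases that release ligands from the membrane and their iRhom partners among them. In comparison with 0.5 h, 1 of the 10 was called at 3 h, where it was lower, and at 9 h 1 rose and 1 fell; at 6 h limma called none, with 3 at an unadjusted p under 0.05. Between 3 and 6 h 2 rose, and between 6 and 9 h 2 rose. Over all genes 22.7%, 13.4% and 33.4% were called at 3, 6 and 9 h against 0.5 h, and 5.93% and 19.2% rose in the later steps. Adam17, the main sheddase for Areg and Tgfa, read -0.43, -0.59 and -0.46 at 0.5 h, -0.80, -0.82 and -0.56 at 3 h, -0.77, -0.73 and -0.87 at 6 h, and -0.51, -0.22 and -0.30 at 9 h. Each 9 h array was above each 6 h array, a 1.36-fold rise (0.45, SE 0.10, adjusted p = 0.00722) that was not called under median scaling (0.24, adjusted p = 0.0734) or normexp (0.34, adjusted p = 0.476). Rhbdf2 (iRhom2), which carries Adam17 to the cell surface, was 1.40-fold lower at 3 h (-0.48, SE 0.09, adjusted p = 0.0042) and 1.43-fold higher at 6 h than at 3 h (0.51, SE 0.09, adjusted p = 0.00514). Its other probe was called in neither comparison (-0.04 and 0.47), and the mean of the probes lost both calls (adjusted p of 0.222 and 0.0565).

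Of 22 tested negative regulators and trafficking genes, 3 were higher and 4 lower at 3 h against 0.5 h, 1 was lower at 6 h, and 2 were higher and 3 lower at 9 h. Between 3 and 6 h 5 were higher, and between 6 and 9 h 1 was higher and 4 lower. Over all genes 9.69% were higher and 13% lower at 3 h, 4.07% and 9.31% at 6 h, and 22.7% and 10.7% at 9 h, and the later steps had 5.93% higher from 3 to 6 h and 19.2% higher and 5.93% lower from 6 to 9 h. Dusp6, the phosphatase that inactivates ERK and is induced by it, read 1.95, 1.80 and 1.86 at 0.5 h, 0.74, 1.02 and 1.11 at 3 h, 1.49, 1.79 and 1.77 at 6 h, and 1.77, 1.49 and 1.49 at 9 h. The 3 h arrays were below all others. It was 1.88-fold lower at 3 h than at 0.5 h (-0.91, SE 0.12, adjusted p = 0.000862) and 1.65-fold higher at 6 h than at 3 h (0.72, SE 0.12, adjusted p = 0.00489), and the latter was lost under normexp (adjusted p = 0.116).

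Spry4, a Sprouty inhibitor of Ras-MAP kinase signalling, read -0.40, -0.38 and -0.36 at 0.5 h, -1.53, -1.63 and -1.60 at 3 h, -0.82, -0.73 and -0.76 at 6 h, and -1.13, -1.42 and -1.53 at 9 h. No 2 times overlapped other than 3 and 9 h. It was 2.31-fold lower at 3 h than at 0.5 h (-1.21, SE 0.09, adjusted p = 3.01e-05) and 1.97-fold lower at 9 h (-0.98, SE 0.09, adjusted p = 0.000103). Its second probe was called in no comparison and differed in sign between 0.5 and 9 h (0.48), between 3 and 6 h (-0.28) and between 6 and 9 h (1.16), so the course rests on 1 probe. Averaging the probes lost the calls at 9 h (-0.25, adjusted p = 0.483) and 6 h (-0.53, adjusted p = 0.204) against 0.5 h. It also lost the rise from 3 to 6 h (0.27, adjusted p = 0.544) and turned the sign from 6 to 9 h (0.29, adjusted p = 0.442). The call at 3 h against 0.5 h was kept. Ptpn12, a phosphatase that acts on ErbB receptors and their adaptors, read -4.46 to -4.23 at 0.5 h, -6.39 to -5.85 at 3 h, -4.16 to -3.68 at 6 h and -5.85 to -5.26 at 9 h. It was 3.54-fold lower at 3 h than at 0.5 h (-1.82, SE 0.19, adjusted p = 0.000176) and 4.66-fold higher at 6 h than at 3 h (2.22, SE 0.19, adjusted p = 6.68e-05). Under normexp neither was called (adjusted p of 0.731 and 0.421), and the 9 h against 0.5 h difference of -1.19 became 0.26. Rab7a, the late endosome GTPase that carries internalised receptors to lysosomes, was 1.35-fold lower at 3 h than at 0.5 h (-0.43, SE 0.06, adjusted p = 0.000966), and normexp ended that call (adjusted p = 0.0604).

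**Figure D4:**
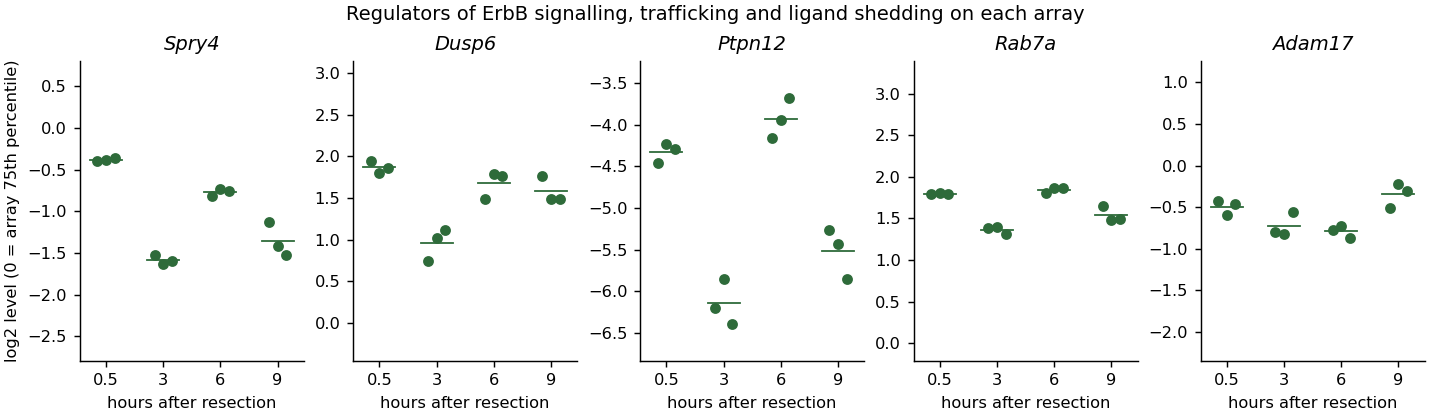
Log2 level on each array (points) and the mean of 3 arrays (bars) of Spry4, Dusp6, Ptpn12, Rab7a and Adam17 against hours after resection; 0 is the array's 75th percentile, and all points were well above background. Dusp6 and Ptpn12 are lowest at 3 h, and Adam17 is higher at 9 h (-0.51 to -0.22) than at 6 h (-0.87 to -0.73).

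Of 26 tested adaptors and kinases below the receptors, 8 were higher and 2 lower at 9 h against 0.5 h, near the shares over all genes of 22.7% and 10.7%. Set against 0.5 h, 2 were higher and 1 lower at 3 h, with the same counts at 6 h; there was 1 lower from 3 to 6 h and 3 higher from 6 to 9 h. The shares over all genes were 9.69% higher and 13% lower at 3 h, 4.07% and 9.31% at 6 h, 4.45% lower from 3 to 6 h and 19.2% higher from 6 to 9 h. The median difference at 9 h against 0.5 h was 0.12, against 0.10 over all genes. Araf, a Raf kinase, was 1.42-fold higher at 3 h than at 0.5 h (0.51, SE 0.06, adjusted p = 0.000622; 1.25 ± 0.05 against 0.74 ± 0.07, SD, n = 3), and its other probe was not called (0.25, adjusted p = 0.0792). Ptpn11, the SHP2 phosphatase that promotes Ras signalling from activated receptors, was 1.58-fold lower at 6 h than at 3 h (-0.66, SE 0.09, adjusted p = 0.00104), and its other probe was called in the same direction (-0.47, adjusted p = 0.0171). Pik3r2, a regulatory subunit of PI3-kinase, was 1.27-fold higher at 9 h than at 0.5 h (0.35, SE 0.08, adjusted p = 0.00935) and lost the call under normexp (adjusted p = 0.345).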

How the data were processed

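Ganglion RNA was labelled with Cy3 and hybridised to 12 single-colour Agilent rat arrays. Agilent Feature Extraction 10.5.1.1 measured the spots, per the file headers, and the deposited intensity values used here are its background-subtracted signals on a linear scale. The submitters' series-wide table repeats those intensities without difference. No scaling between arrays is stated in the labels.

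Control and outlier spots were left out and no spot was saturated. Log2 intensity minus each array's 75th percentile was used, spots of a probe were averaged, a probe was kept if all 3 arrays of some time had it well above background (34837 of 41012), and a gene is its brightest kept probe. limma 3.58.1 in R 4.3.3 was fitted over 29623 genes and 12 arrays, with Benjamini-Hochberg adjustment within each comparison. It was tested on simulated data. The number of arrays limits precision. Names of genes follow the files.

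The members and lists were chosen with earlier results of these data known. Named are all members and other family genes, and up to 4 called genes with non-overlapping arrays and the largest differences per comparison from each pathway list, of which a subset is described. The subset did not always hold the largest differences. Not described above were Rhbdl2 (1.76) and Spred2 (1.42) at 9 h against 0.5 h, Adam12 from 6 to 9 h (0.99) and Lrig3 from 3 to 6 h (2.25). Rhbdl2 and Spred2 were well above background on no 0.5 h array, and Lrig3 on no 3 h array. Normexp ended each of these calls. Marker lists of 10 cell types were also examined. Alternatives were normexp correction (offset 50), quantile and median scaling, looser and stricter filters on dim probes, averaging probes, slide and replicate blocks, fits on only the times compared and leaving out each array.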

Additional observations from a re-analysis of the deposited data

How the results depend on the processing

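Every called difference of the 10 genes kept its sign under each alternative that gave a value. Of 930 alternative values over 45 member differences, 842 kept sign and side of the threshold, 39 lost the call, 13 gained one and 36 changed sign, none of these last from a called difference. The filter to probes well above background on all arrays leaves Areg, Btc and Erbb3 without a value. Normexp kept among the members only the Erbb2 call at 3 h against 0.5 h. Over all genes it called 685 at 3 h, 1 at 6 h and 425 at 9 h against 0.5 h, 318 from 3 to 6 h, 163 from 6 to 9 h and 678 over the 4 times, against 6731, 3963, 9881, 3075, 7448 and 12919. The slide as a random block (correlation within slide -0.255) called 13845, 9073, 16879, 7928, 12504 and 21774 in the same order. No slide held arrays of more than 1 time, so that block cannot separate slide from time. Without the filter on dim probes 11482 were called at 3 h and 8981 at 6 h. With only the times compared, 4469 and 2488 were called, and with probes well above background on all arrays 4515 from 6 to 9 h. Leaving out an array gave 2165 to 4071 calls at 6 h against 0.5 h (2565 without the second 0.5 h array, 2203 and 2165 without the first and the third 6 h arrays) and 1648 to 3179 from 3 to 6 h (1850 without the first 3 h array, 1648 without the third 6 h array). The cause of these shifts was not tested.

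Median scaling gave 4364 higher and 4952 lower calls at 9 h against 0.5 h, where the 75th percentile gave 6718 and 3163. It gave 4421 and 2897 at 3 h, against 2869 and 3862. At 6 h it gave 2371 and 1710, against 1206 and 2757, and from 6 to 9 h 3558 and 6069, against 5692 and 1756. Quantile scaling gave 4850 and 4600 at 9 h, 3911 and 3194 at 3 h, 2039 and 1831 at 6 h, and 3223 and 3651 from 6 to 9 h. The median difference of all genes from 6 to 9 h was 0.11 with the 75th percentile and -0.10 with the median, and at 9 h against 0.5 h it was 0.32 under normexp.

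Signs turned as follows. Under normexp, Areg became -0.04 at 3 h against 0.5 h and 0.57 from 3 to 6 h, Hbegf 0.01 from 3 to 6 h, Btc 1.03 at 9 h against 0.5 h and 0.23 from 6 to 9 h, Egfr 0.00 and Erbb3 -0.18 at 3 h. Epgn became -0.05 at 3 h and 0.58 from 3 to 6 h, Adam10 0.21 and Ptpn12 0.26 at 9 h against 0.5 h, and Lrig3 0.15 from 6 to 9 h. Each of these Epgn, Adam10, Ptpn12 and Lrig3 differences was called in the main limma fit. Adam10 was -0.24 there (adjusted p = 0.0262) and Lrig3 was -2.03 (adjusted p = 0.0174). Under quantile scaling, Areg became 0.04 from 3 to 6 h, Btc 0.71 at 3 h and 0.13 at 9 h against 0.5 h, and Erbb3 -0.09 from 6 to 9 h. Under median scaling, Tgfa became 0.04 and Btc 0.00 at 3 h, and Nrg1 -0.18 from 6 to 9 h. The mean of the probes gave Nrg1 -0.08 from 3 to 6 h and Spry4 0.29 from 6 to 9 h, and the slide block gave Erbb3 -0.01 from 3 to 6 h. Leaving out an array, the ranges were -0.14 to 0.06 for Areg, -0.20 to 0.02 for Hbegf, -0.04 to 0.11 for Nrg1 and -0.10 to 0.15 for Erbb3 from 3 to 6 h. At 3 h against 0.5 h they were -0.32 to 0.04 for Hbegf, -0.08 to 0.01 for Tgfa, -0.32 to 0.18 for Btc and -0.23 to 0.03 for Egfr. They were -0.18 to 0.18 for Hbegf and -0.36 to 0.14 for Btc at 9 h against 0.5 h, and -0.01 to 0.05 for Nrg1 from 6 to 9 h.

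The replicate numbers were not treated as pairs in the main fit, and the labels do not say whether they pair the samples. Same-numbered arrays of different times had deviation correlations of -0.13 to 0.22, with 3 of 18 over 0.1. These values cannot show or exclude pairing, as differently numbered arrays were not set beside them. With the replicate number as a block, 5675, 3256, 8909, 2475 and 6693 genes were called in the 5 comparisons. Signal over background limits Btc, Ereg, Epgn and Erbb4, and Areg and Erbb3 at 0.5 h.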
